A study of Rattus norvegicus with 10 samples.

Results

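The genes described here encode subunits of the ligand-gated ion channels for GABA, glutamate, glycine and acetylcholine. Members were chosen by name: a probe set (a group of short probes that together measure a transcript) had to carry exactly 1 gene symbol, and that symbol had to belong to the Gabra, Gabrb, Gabrg, Gabrd, Gabre, Gabrq, Gria, Grik, Grin (followed by a digit), Glra, Glrb, Chrna or Chrnb series. The rule found 45 genes with 65 probe sets, of 14218 genes with 20832 probe sets in the whole table. Each gene was represented by its brightest probe set, the one with the highest mean log2 signal over the arrays. No measured difference was used to choose the genes.

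The study asked how mild to moderate calorie restriction (CR) of short duration alters gene expression in rat tissues. Male Wistar rats, an outbred laboratory strain, were bought at 5 weeks of age and entered the feeding experiment at 6 weeks. At 1 week, a control group received the whole of its recorded food intake, and other groups received 5, 10, 20 or 30% less. Brain tissue was taken after a 16 h fast that the controls underwent too, and the study's methods place it in the hypothalamus area. RNA of 5 rats was pooled for each group and read on 1 Affymetrix rat array, so the values come from 5 arrays, no group had a second array, and pooling hides the spread between rats. Signals are MAS5 intensities on a linear scale. The comparison set the 4 CR arrays as 1 arm against the single control array on the log2 scale. The 4 CR levels are not replicates of a dose, and p-values measure the spread between these pools, with the lone control array assumed to vary like the CR arrays.

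Ionotropic receptors are ion channels that open when a transmitter binds. GABA-A receptors and glycine receptors pass chloride and usually inhibit the neuron. AMPA, kainate and NMDA receptors are opened by glutamate and excite it, and nicotinic receptors are opened by acetylcholine. Each channel is assembled from several subunits, and the mix of subunits sets where the receptor sits, how fast it closes and which drugs act on it. In the hypothalamus, GABA and glutamate carry most of the fast signalling between neurons, including those that control feeding.

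Of the 45 members, 22 passed the filter on low signals and were tested. The filter kept probe sets whose log2 signal, averaged over the 5 arrays, was in the upper 50% of the table, which is a signal of about 53.4. By limma with Benjamini-Hochberg adjustment over all 15517 probe sets tested, 3 members fell under CR (Gabra2, Gabrb2 and Glra2), 2 passed in the other direction (Gabrd and Grin2b), and 17 did not pass. Gabrd and Grin2b had control signals below the filter and entered the test through the CR arrays alone, so that they had to read higher under CR to be tested at all, and nothing is drawn from their passing. The 3 that fell were 13.6% of the tested members, against 11.3% of all tested genes and 11% of all tested probe sets. The 2 that passed upward were 9.09%, against 11.6% of genes and 14.5% of probe sets. These shares lie near the background, so the number of calls is not a result about the receptors. The median log2 difference of the tested members, CR minus control, was -0.22, beside -0.02 for the 9478 tested genes. After quantile scaling these medians were -0.15 and -0.02. Median scaling shifted every log2 difference by -0.44 and so left the gap between them as it was.

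Sequences upstream of the start of transcription are shown for the members that passed the test and had an entry in the RefSeq tables. Each is the stretch of 250 bases just before the annotated start in the GRCr8 assembly, written 5′ to 3′ on the strand of the gene. Gabrb2, at chr10:27439543-27439792 on the plus strand, and Glra2, at chrX:32651937-32652186 on the plus strand, fell under CR. Gabrd, at chr5:171252710-171252959 on the minus strand, read higher from a control signal below the filter. No contrast between lower and higher genes is therefore drawn from these sequences. Capitals mark TGCGCA, a part of the site bound by the factor NRF1, and GGGCGG, the box bound by Sp1, which appears as CCGCCC when it lies on the other strand. No sequence is shown for Gabra2 and Grin2b.
Gabrb2: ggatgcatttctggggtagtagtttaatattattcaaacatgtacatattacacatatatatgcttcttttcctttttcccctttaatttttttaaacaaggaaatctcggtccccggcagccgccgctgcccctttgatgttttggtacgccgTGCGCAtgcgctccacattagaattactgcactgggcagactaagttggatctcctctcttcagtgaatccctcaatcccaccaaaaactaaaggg
Glra2: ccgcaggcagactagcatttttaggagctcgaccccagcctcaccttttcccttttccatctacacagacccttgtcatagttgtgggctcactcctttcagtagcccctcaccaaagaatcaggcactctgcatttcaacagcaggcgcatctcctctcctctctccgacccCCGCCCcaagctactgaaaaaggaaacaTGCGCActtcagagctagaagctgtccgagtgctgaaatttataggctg
Gabrd: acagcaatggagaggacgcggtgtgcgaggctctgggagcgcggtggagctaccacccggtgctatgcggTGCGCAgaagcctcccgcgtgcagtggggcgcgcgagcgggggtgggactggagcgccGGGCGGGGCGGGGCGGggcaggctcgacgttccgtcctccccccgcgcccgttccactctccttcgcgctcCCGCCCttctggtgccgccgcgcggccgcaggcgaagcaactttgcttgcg

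G and C made up 43.2% of bases in the stretch before Gabrb2, 52.4% before Glra2 and 74.0% before Gabrd. All 3 held TGCGCA 1 time. GGGCGG was found 4 times before Gabrd (overlapping matches and both strands counted), 1 time before Glra2 and 0 times before Gabrb2. Over the members, TGCGCA was present before 8 of the 34 with an entry (Chrna7, Gabra4, Gabrb1, Gabrb2, Gabrd, Glra2, Grik3 and Grin2d), and in 6.14% of all 33469 upstream stretches of the same length. Those stretches came from 27457 genes, so that some genes gave more than 1, whereas each member gave 1. Shares of members and of stretches were not compared by a test. GGGCGG was present before 18 of the 34, and in 30.5% of all stretches. The cyclic AMP response element TGACGTCA was found before 0 of the 34 and in 1.59% of all stretches. The TATA box letters TATAAA, counted on both strands, were found before 3 (Chrnb1, Gabra3 and Glra2) and in 12.9% of all stretches. Before Glra2 they lie on the other strand only, where they appear as TTTATA. A match describes letters in this window and is not a measured binding site.

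Results for CR against control are set against a control array that differed as a whole from the CR arrays. It had 24.0% of its signals under 10, and the CR arrays had 11.7 to 14.4%. Over probe sets, its log2 signals had correlations of 0.852 to 0.874 with those of the CR arrays, and pairs of CR arrays had 0.912 to 0.922. The log2 ratio of the 3′ to the 5′ probe set of GAPDH, a sign of RNA quality, was 0.19 on the control array and 0.40 to 0.79 on the CR arrays. The 13 hypothalamic neuron markers on the array had a summed signal of 25335.5 in the control and 28776.3 to 31228.5 under CR, with Otp, Pomc and Sim1 under a signal of 100 on every array. Of these markers 10 were tested, with 3 called higher (Npy, Cartpt and Resp18) and 1 lower (Trh) by limma. Summed markers of cortical and hippocampal neurons read 328.3 in the control and 552.2 to 691.8 under CR, those of the pituitary 990.3 and 2049.2 to 2860.7, and those of skeletal muscle 2023.2 and 4146 to 5343.7. Most of each of these sums was a single gene, namely Prox1, Cga and Myh1. Of 7 pituitary markers on the array 3 were tested (Cga, Tshb and Lhb), and all were called higher by limma. The control signals of Tshb and Lhb were below the filter, so that their calls carry no weight. Thalamic and habenular markers summed to 3170.9 and 2462.5 to 2522.9, with Calb2 and Cbln1 called lower while Tcf7l2 and Lef1 read above the control on all 4 CR arrays and did not pass. Cerebellar markers summed to 1950.7 and 1373.3 to 1581.9, most of it Calb1, which was called lower, while Neurod1, Pcp2 and Car8 read above the control on all 4 CR arrays. General neuron markers summed to 18565.6 in the control and 17074.3 to 18603.2 under CR, but 2 of 9 tested were called higher (Nefm and Eno2) and 2 lower (Stmn2 and Tubb3). Of 8 tested oligodendrocyte markers 3 were called lower (Mog, Mal and Ugt8) by limma. Mbp and Cnp read above the control on all 4 CR arrays, Mag and Cldn11 below it, and Mobp overlapped, and none of these passed. Of 7 tested astrocyte markers 2 were called lower (Aldh1l1 and Ntsr2) and 1 higher (Gja1) by limma. The part of these differences in the receptor results was not tested.

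**Figure D1:**
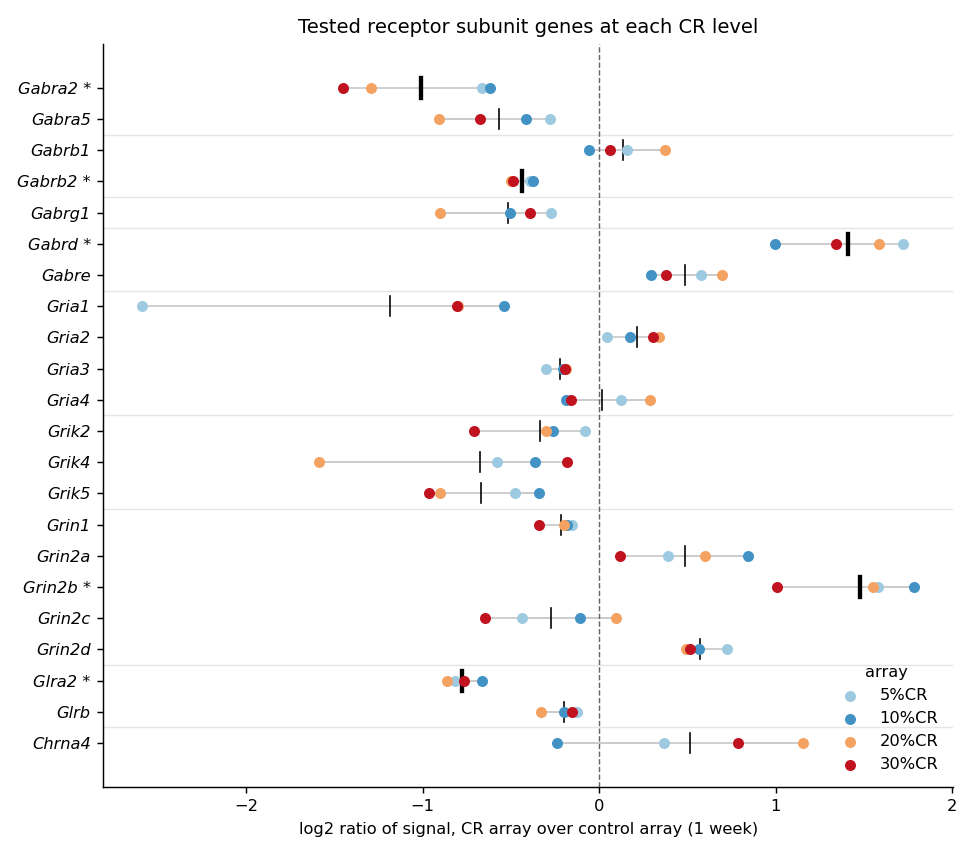
Log2 ratio of the MAS5 signal on each CR array to the control array for the 22 tested genes, with 1 point per CR level, a tick at the mean of the 4 points, and a thick tick and a star for the 5 genes that passed the test. All 4 points of Gabra2, Gabrb2 and Glra2 lie below 0, all 4 of Gabrd and Grin2b above 0, and 4 genes have points on both sides.

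Among GABA-A receptor subunits, 12 members were on the array and 7 were tested: 2 fell, 1 passed upward (Gabrd, through the filter described above) and 4 did not pass. The alpha subunits carry, together with the beta subunits, the GABA binding site, and with the gamma subunits the benzodiazepine site. Gabra2, an alpha subunit common in the forebrain and hypothalamus, read 336.3 on the control array and 212.4, 219.0, 137.1 and 123.2 at 5, 10, 20 and 30% CR. Each CR signal lay below the control, and the lowest were those at 20 and 30% CR. The log2 difference was -1.01 (SE 0.32), a 2.01-fold lower mean signal, with an adjusted p of 0.0468 by limma. In bulk RNA, fewer cells that express a gene and less RNA per cell cannot be told apart. The call lies close to the threshold and was lost without the 20% CR array (adjusted p = 0.0721 by limma), after quantile scaling (0.0806), with no filter (0.0518), with both arms weighted equally in the filter (just above the threshold) and without limma's intensity trend (0.113).

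Gabra5, the alpha subunit known for receptors outside the synapse in the hippocampus, read 391.2 in the control and 322.2, 293.8, 208.3 and 245.1 under CR. As for Gabra2, the control signal was the highest and those at 20 and 30% CR were the lowest. The log2 difference was -0.57 (SE 0.24), and the adjusted p of 0.106 by limma did not pass. Gabra3, Gabra4 and Gabra6 were dim, under 100 on every array, and were not tested. Gabra3 read 26.4 in the control and 5.5 to 10.5 under CR, whereas Gabra6, the alpha subunit of cerebellar granule cells, read 5.8 in the control and 3.0 to 24.1.

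The beta subunits are needed for assembly and for the GABA site. Gabrb2 read 1456.1 in the control and 1112.3, 1124.3, 1030.8 and 1037.6 under CR. The 4 CR signals lay within a narrow range and all below the control. The log2 difference was -0.44 (SE 0.12), a 1.35-fold lower mean signal with an adjusted p of 0.0215 by limma. A dimmer probe set of the gene read 14.4 in the control and 9.2 to 22.1 under CR and was not tested. The call was lost after quantile scaling (adjusted p = 0.0553 by limma), without the intensity trend (0.106) and with the mean of both probe sets (0.715). Gabrb1 read 1097.5 in the control and 1054.6 to 1421.4 under CR, so that its groups overlapped, with a log2 difference of 0.13 (adjusted p = 0.568 by limma). Its sign turned under median scaling, to -0.30.

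Gamma subunits anchor the receptor at the synapse. Gabrg1 read 82.7 in the control and 68.4, 58.4, 44.2 and 63.1 under CR, all below the control, and did not pass (log2 difference -0.52, adjusted p = 0.376 by limma). Gabrg3 was not tested, at 9.1 in the control and 27.6 to 86.1 under CR.

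The delta subunit takes the place of gamma in receptors outside the synapse that respond to ambient GABA and to neurosteroids. Gabrd read 26.9 in the control and 88.6, 53.6, 80.7 and 68.1 under CR. Every CR signal lay above the control, in no order of restriction, and all 5 signals were under 100. The log2 difference was 1.41 (SE 0.42), with an adjusted p of 0.0353 by limma. Since its control signal was below the filter, that p carries no weight and the difference depends on a signal near background. With both arms weighted equally in the filter the gene was not tested. Both of its dimmer probe sets were below the filter, 1 at 26.5 in the control and 5.6 to 53.0 under CR, which overlapped, and 1 at 2.1 and 6.5 to 22.4. It no longer passed without the 5 or the 20% CR array, at adjusted p values of 0.0781 and 0.0661 by limma, and without the 30% CR array, where the adjusted p was just above the threshold. After median or quantile scaling the difference was 0.97 or 0.79 and did not pass (adjusted p = 0.0917 and 0.268 by limma). Granule cells of the cerebellum and dentate gyrus are known for Gabrd. Among the markers listed for cerebellar, cortical and hippocampal neurons, Neurod1 (not tested) read 34.6 in the control and 37.4 to 59.7 under CR. Prox1 read 209 and 343.1 to 445.5 (adjusted p = 0.0087 by limma). Car8, which did not pass, and Pcp2 (not tested, at 10 and 58.1 to 80.8) also read above the control. So did Tbr1, Emx1, Neurod2 and Slc17a7, none of them tested. Not all listed markers did: Zic1 (not tested) overlapped, at 27.1 and 7.6 to 36.3, and Calb1 read 1783.3 and 1139.8 to 1292.8. Neurod6 (not tested) read 38.3 and 14.5 to 26.2, and Fezf2 (not tested) overlapped, at 36.7 and 6.9 to 70.3. The part of such cells in the values of Gabrd was not tested.

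Gabre, the epsilon subunit, which is known from the hypothalamus and brainstem, read 116.2 in the control and 173.5, 142.6, 188.4 and 151.0 under CR. All 4 CR signals were above the control, and the difference of 0.49 on the log2 scale did not pass (adjusted p = 0.165 by limma). Gabrq, the theta subunit, often found with epsilon, was dim at 3.5 in the control and 19.4 to 42.4 under CR.

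**Figure D2:**
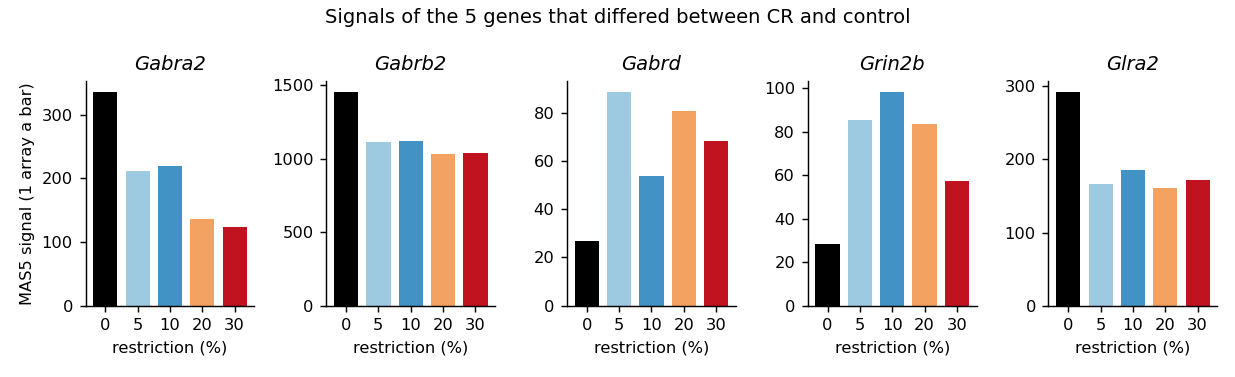
MAS5 signal on a linear axis from 0 against restriction in percent (0 is the control) for the 5 genes that passed the test, with 1 bar per array and no error bar since each group has 1 array. Gabra2 falls from 336.3 to 123.2 at 30% CR, Gabrb2 and Glra2 sit at 1 lower level at all 4 restrictions, and Gabrd and Grin2b are above the control at signals under 100.

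Glycine receptors are built from alpha subunits, which bind glycine, and the beta subunit Glrb, which ties the channel to the scaffold protein gephyrin. Glra2, an alpha subunit prominent in the developing brain, read 292.3 in the control and 166.2, 184.8, 161.0 and 172.0 under CR. The CR arrays lay close together and all below the control. The log2 difference was -0.78 (SE 0.20), a 1.71-fold lower mean signal with an adjusted p of 0.0180 by limma. A dimmer probe set of the gene, not tested, read 24.8 in the control and 11.9 to 15.4 under CR, also below it on all 4 arrays. Glra2 was the 1 member that passed under every alternative that tested it, with adjusted p values of 0.0014 to 0.0356 by limma. Glra1 and Glra3 were dim, with signals of 0.3 to 58.8 over all 5 arrays. The brightest probe set of Glrb read 951.2 in the control and 871.8, 829.8, 758.0 and 856.2 under CR, and its log2 difference of -0.20 (SE 0.13, 95% interval -0.49 to 0.09) did not pass (adjusted p = 0.282 by limma). A second probe set of Glrb passed and is described below.

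Of the glutamate receptor subunits, 16 members were on the array and 12 were tested. By their brightest probe sets 0 fell, Grin2b passed upward (through the filter described above) and 11 did not pass. The AMPA subunits Gria1 to Gria4 form the channels for fast excitation, and Gria2 sets whether they let calcium through. Gria2 read 760.6 in the control and 783.1, 860.3, 962.6 and 940.4 under CR by its brightest probe set. All 4 CR signals were above the control, and the log2 difference of 0.22 (SE 0.14, 95% interval -0.10 to 0.54) did not pass (adjusted p = 0.297 by limma). Under median scaling that sign turned, to -0.22. A second probe set of Gria2 passed downward and is described below. Gria1 read 195.5 in the control and 32.5, 134.7, 112.5 and 111.9 under CR. Its 5% CR array was far below the other CR arrays, and the difference of -1.18 (SE 0.64) did not pass (adjusted p = 0.208 by limma). Gria3 read 253.2 in the control and 205.3 to 222.2 under CR, all below the control (log2 difference -0.22, adjusted p = 0.402 by limma). Gria4 read 200.4 in the control and 176.1 to 244.7 under CR, which overlapped (0.02 on the log2 scale, adjusted p = 0.970 by limma).

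Kainate receptors are related glutamate channels that act on both sides of the synapse. Grik2, Grik4 and Grik5 were tested and none passed by limma. Each read lower on all 4 CR arrays than on the control array. Grik5, which needs a partner such as Grik2 to form a channel, read 126.2 in the control and 90.8, 99.5, 67.6 and 64.8 under CR (log2 difference -0.67, SE 0.35, adjusted p = 0.187 by limma). Grik4 read 110.2 in the control and 36.7 to 97.1 under CR (-0.68, adjusted p = 0.356 by limma), and Grik2 read 117.3 and 71.9 to 111.2 (-0.34, adjusted p = 0.474 by limma). The untested Grik1 read 67.2 in the control and 10.9, 25, 25 and 23.3 under CR, and the untested Grik3 read 2.4 in the control and 19.8 to 43.6 under CR. These dim genes thus lay on opposite sides of the control.

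NMDA receptors join the obligatory subunit Grin1 with a Grin2 subunit, which binds glutamate and sets the kinetics. Grin1 read 373.4 in the control and 335.7, 329.3, 325.8 and 295.3 under CR. It lay below the control on every CR array, with a log2 difference of -0.22 (SE 0.16, 95% interval -0.58 to 0.14) that did not pass (adjusted p = 0.353 by limma). Grin2b, the subunit with slow kinetics that is prominent in the young forebrain, read 28.5 in the control and 85.1, 98.3, 83.5 and 57.2 under CR. Every CR signal was above the control, and all 5 were under 100. The log2 difference was 1.48 (SE 0.41), with an adjusted p of 0.0251 by limma. Like Gabrd, it reached the filter through the CR arrays alone, so that the p carries no weight, and it was not tested where both arms were weighted equally. A dimmer, untested probe set read 15.1 in the control and 26.4 to 82.7 under CR, on the same side. It no longer passed without the 10% CR array (adjusted p = 0.0532 by limma) and after median or quantile scaling, at 1.04 and 0.89 on the log2 scale (adjusted p = 0.0598 and 0.178 by limma).

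The other Grin2 genes did not pass by their brightest probe sets. Grin2d, which is typical of the diencephalon and brainstem, read 85.2 in the control and 140.8, 126.1, 120.0 and 121.6 under CR, all above it (0.57 on the log2 scale, SE 0.25, adjusted p = 0.122 by limma). Grin2a, the subunit of mature forebrain synapses, read 113.3 in the control and 123.0 to 203.2 under CR (0.49, adjusted p = 0.242 by limma). Grin2c, typical of the cerebellum, read 170.1 in the control and 108.6 to 181.8 under CR, which overlapped (-0.27, adjusted p = 0.539 by limma). Grin3a and Grin3b, which lower calcium entry through the channel, were dim and overlapped with the control.

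Of 13 nicotinic members, 12 had every signal under 100, did not reach the filter and were not tested. Chrna4, whose protein joins that of Chrnb2 in the main nicotinic receptor of the brain, read 56.1 in the control and 72.4, 47.5, 124.7 and 96.9 under CR. Its groups overlapped, and the log2 difference of 0.52 (SE 0.49) did not pass (adjusted p = 0.475 by limma). Chrnb2 read 6.7 in the control and 13.9, 58.3, 13.1 and 11.5 under CR, a spread set by the 10% CR array. Chrna7, whose protein forms receptors by itself, read 17.9 in the control and 41.3, 11.1, 18.8 and 46.5 under CR, with signals on both sides of the control. Chrna1 and Chrnb1, subunits of the receptor at the neuromuscular junction, read 7.0 and 8.1 in the control, with 7.1 to 32.7 and 13.3 to 31.8 under CR. Summed muscle markers also read higher under CR, but most of that sum was Myh1, at 1822.4 in the control and 3712.2 to 5029 under CR. Ckm, Myh2, Myog and Tnnt3 were under 100 on every array. The part of muscle in the values of Chrna1 and Chrnb1 was not tested.

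All 23 untested members, including those nicotinic genes, had 5 signals under 100, from 0.3 to 86.1, and 14 had a control signal under 10. Their mean log2 signal under CR was above the control in 19 of the 23 (82.6%). Among all 4739 dim genes that were not tested the same held for 75.8%. The dim members thus leaned upward at about the rate of dim genes in general. All 4 CR arrays lay above the control in 12 of them and below it in 3 (Gabra3, Grik1 and Chrna6), and 8 overlapped. Such signals cannot be told from absent transcripts, since detection calls were not used here. Among the tested members, all 4 CR arrays lay above the control in 6 (27.3%, against 33.3% of tested genes) and below it in 12 (54.5%, against 35.9%), and 4 overlapped.

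**Figure D3:**
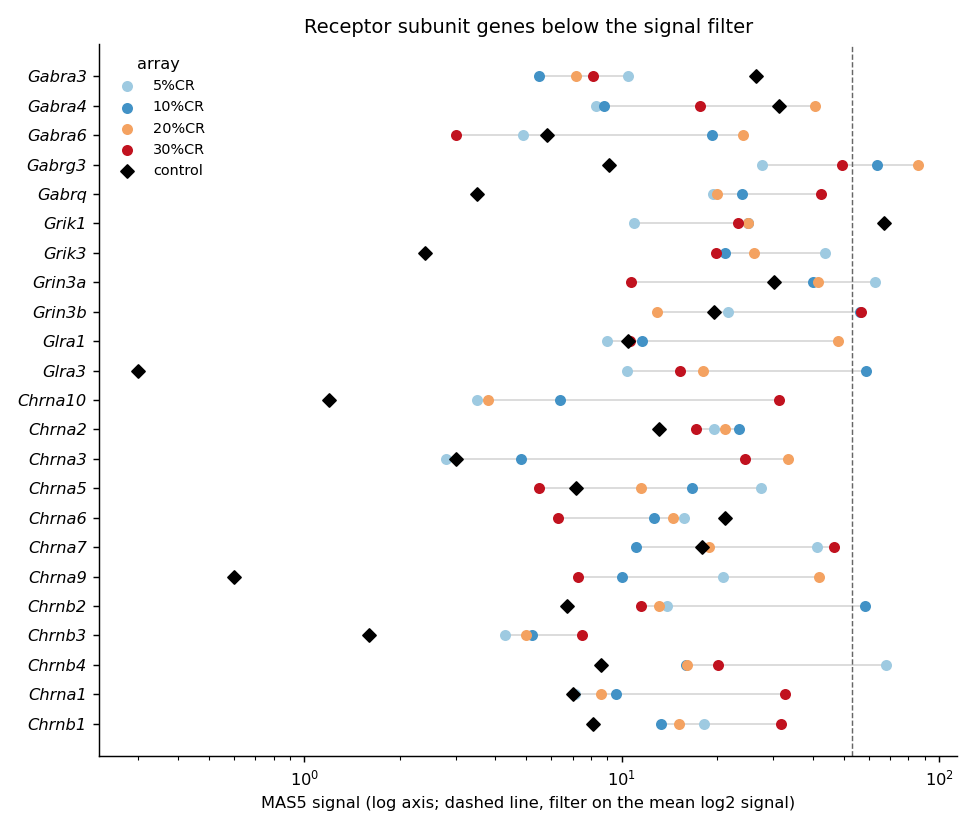
MAS5 signal on a log axis of the 23 genes below the filter, with the control array as a diamond and the 4 CR arrays as points, and the filter as a dashed line. The control diamond is the lowest value in 12 genes and the highest in 3, and no signal exceeds 86.1.

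Probe sets of the same gene did not always give the same answer. A gene can have several probe sets that read different stretches of its transcripts, and 16 members had more than 1. Of these, 4 (Glrb, Gria2, Gria4 and Grin2a) had 2 probe sets past the filter, and the difference between their CR effects was fitted within arrays. The comparison was chosen after the data had been seen. By limma 20.4% of the 1872 genes with such a pair passed. Among the members Glrb, Gria2 and Grin2a passed, but a probe set of Glrb reached the filter through the control array alone and a probe set of Grin2a through the CR arrays alone, so that no count is drawn from them.

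The next brightest probe set of Glrb read 234.7 in the control and 48.7, 40.0, 30.1 and 47.1 under CR. That is a log2 difference of -2.53 (SE 0.43, adjusted p = 0.0028 by limma), whereas the brightest read -0.20. The effects of the 2 probe sets differed by -2.32 (SE 0.31, adjusted p = 0.0065 by limma). All 4 CR signals of the next brightest were below the filter signal of 53.4, so that it was tested through its control signal, and these values are a description. Both probe sets lay below the control on every CR array, and the brightest did not pass. Another probe set, not tested, read 0.1 in the control and 1.4 to 9.1 under CR.

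For Gria2 both probe sets were above the filter on every array. The mean log2 signal that ranked them gave the 4 CR arrays more weight than the control. With both arms weighted equally the next brightest had the higher mean, 9.74 against 9.68. The next brightest probe set read 1279.6 in the control and 641.9, 621.8, 592.6 and 451.7 under CR, a log2 difference of -1.16 (SE 0.19, adjusted p = 0.0023 by limma). It was the brighter of the pair on the control array and the dimmer on each CR array, while the other probe set read 0.22 higher on the log2 scale under CR. The effects differed by -1.38 (SE 0.35, adjusted p = 0.0341 by limma). The 0.22 of the brightest did not pass, so that a rise by that probe set was not shown.

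For Grin2a the next brightest probe set read 15.2 in the control and 120.3, 156.7, 196.3 and 132.2 under CR. Its log2 difference was 3.29 (SE 0.34, adjusted p = 0.0003 by limma), beside 0.49 for the brightest, and the effects differed by 2.80 (SE 0.33, adjusted p = 0.0064 by limma). Another probe set, not tested, read 15.6 in the control and 31.2 to 56.8 under CR. All of these lay above the control on each CR array. The control signal of 15.2 was near background and below the filter, so that the next brightest probe set was tested through the CR arrays alone and its p values carry no weight. The pair of Gria4 read 0.02 and 0.64, and their difference of 0.63 did not pass (adjusted p = 0.218 by limma).

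Such disagreement was common on these arrays. Over the 1872 genes, the absolute difference between the effects of the 2 probe sets had a median of 0.64 on the log2 scale, 28.8% were past 1, and 42.9% of pairs had opposite signs. Both probe sets passed in 197 genes, and in 43 of those they passed in opposite directions. Whether the probe sets of Glrb, Gria2 and Grin2a read different isoforms was not tested.

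**Figure D4:**
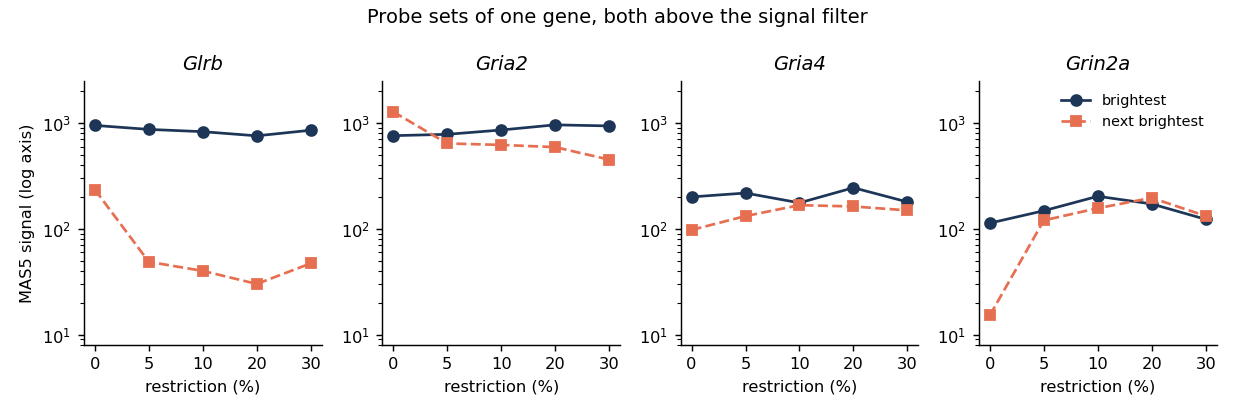
MAS5 signal on a log axis against restriction in percent (0 is the control, steps drawn evenly) for the 2 probe sets past the filter of Glrb, Gria2, Gria4 and Grin2a, with 1 point per array. The next brightest probe sets of Glrb and Gria2 drop between control and 5% CR, that of Grin2a climbs from 15.2 to 120.3, and the brightest probe sets stay closer to their control.

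Each CR level was also set against the control by the ratio of their signals, with no test since each group had 1 array. At 5% CR, 3 of the 22 tested members were more than 1.5-fold higher and 3 lower, beside 16% and 13.8% of tested genes. At 10% CR these were 3 and 2 members, beside 16.8% and 15.9%. At 20% CR they were 5 and 7, beside 17.4% and 17%, and at 30% CR 3 and 7, beside 15.3% and 12.6%. Gabrd and Grin2b were past 1.5-fold above the control at all 4 levels, and Gabra2 and Glra2 below it. After quantile scaling 0 members were, in either direction. Since Gabrd and Grin2b entered the test through the CR arrays alone, nothing is drawn from their place among the higher members. At 20% and at 30% CR the lower members included Gabra5, Gria1 and Grik5 as well. The median log2 ratio of the members was -0.14, -0.20, -0.19 and -0.19 at 5, 10, 20 and 30% CR, beside -0.01, -0.03, -0.03 and 0.01 for all tested genes. These ratios share the control array.

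Over the 4 CR arrays alone, which leaves the control out, no member had a slope on restriction that passed by limma. No probe set passed either, at 0% of 15517 probe sets, and 741 (4.78%) had an unadjusted p under 0.05. Among the members 1 of 22 did, Gabra2, with a slope of -0.36 on the log2 scale per 10 percentage points of restriction (SE 0.11, unadjusted p = 0.0079 and adjusted p = 0.999 by limma). With the control added as 0% restriction its slope was -0.46 (adjusted p = 0.791 by limma). The next downward slope was that of Grin2b, at -0.25, and the largest upward slopes were those of Gria1, at 0.50, and Chrna4, at 0.34, with unadjusted p values of 0.162, 0.105 and 0.140 by limma. The lowest CR signal of Gria1 was that at 5% CR. The next brightest probe set of Gria2, which read lower with each step of restriction, had an unadjusted slope p of 0.0208 by limma.

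Proteins that anchor or transport GABA-A receptors were tested for 12 genes, of which 3 rose and 2 fell, with a median log2 difference of -0.22. Over all tested genes 11.6% were called higher and 11.3% lower, against which the counts of this and the following lists are to be read. Nlgn2, the neuroligin of inhibitory synapses, rose by 1.06 (adjusted p = 0.0463), Shisa7, a partner of GABA-A receptors, by 0.90 (adjusted p = 0.0322), and Trak1, which links cargo to kinesin, by 0.61 (adjusted p = 0.0064), all by limma. Nsf, the vesicle fusion ATPase, fell by 0.51 (adjusted p = 0.0151) and Gabarapl1, of the GABARAP family, fell by 0.33 (adjusted p = 0.0496), both by limma. The calls of Nlgn2 and Gabarapl1 lie close to the threshold, and a dimmer probe set of Nlgn2 was below the filter. Results under alternative processing are not given for the genes of this and the following lists. Gephyrin (Gphn), the scaffold of glycine and GABA-A receptors, read 333 in the control and 232.5 to 318.1 under CR and did not pass (adjusted p = 0.249 by limma).

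Of the partners of AMPA and kainate receptors, 10 were tested, with a median of 0.13. Of these 2 passed upward (Cacng2, and Gsg1l through the CR arrays alone) and 1 fell. Cacng2 (stargazin), which brings AMPA receptors to the synapse, read 310.2 in the control and 458.3 to 572.4 under CR (log2 difference 0.74, adjusted p = 0.0086 by limma). Gsg1l, another auxiliary subunit, had a difference of 1.17 (adjusted p = 0.0238 by limma), from a control signal of 49.5 that was below the filter. Like Gabrd, it was tested through the CR arrays alone, so that its p carries no weight. Cnih2, a cornichon that slows AMPA receptor closing, read 1262.7 in the control and 665.7 to 880 under CR (-0.71, adjusted p = 0.0118 by limma). Partners of the same receptor thus passed in opposite directions while no AMPA subunit passed by its brightest probe set. Of 14 tested genes of the excitatory postsynaptic density, Shank1, a scaffold, rose by 0.48 (adjusted p = 0.0250 by limma), 0 fell, and the median was -0.10.

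No gene passed by limma among 3 tested nicotinic partners, 6 genes of transmitter synthesis and transport (median -0.37), 4 chloride transporters (median -0.32) or 1 tested receptor gene outside the naming rule (Grina, -0.18, adjusted p = 0.235). Slc12a5 (KCC2) and Slc12a2 (NKCC1), which set the chloride gradient that GABA-A receptors use, had log2 differences of -0.31 (adjusted p = 0.0549 by limma) and -0.32 (adjusted p = 0.0921 by limma).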

How the data were processed

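The authors pooled RNA of 5 rats per group, hybridised each pool to 1 Affymetrix rat array and deposited MAS5 signal intensity on a linear scale, scaled per array. Because mismatch signal is subtracted in MAS5, low values carry a large error after log2. The name MAS5 comes from the submitters' processing notes and the study's methods.

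The series holds 10 arrays and the 5 arrays of 1 week were used. The 1 month columns were not used: their rows do not follow the probe set identifiers (r of 0.0357 to 0.0524 with the 1 week arrays over 25 pairs, but 0.918 to 0.935 among themselves).

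No pseudocount was added before log2, and 4 signals of 0 were replaced by 0.1. Of 31099 probe sets, 20832 had 1 gene symbol in the platform annotation, 436 several and 9831 none. The Entrez identifiers of all 45 members were found in the RefSeq table of GRCr8, and their symbols were the same there. The filter for testing was the 50th percentile of the mean log2 signals, and 57 control probe sets were left out. R 4.3.3 with limma 3.58.1 (lmFit, eBayes with an intensity trend, Benjamini-Hochberg, threshold 0.05) compared the 4 CR arrays with the control array, which leaves 3 residual degrees of freedom, and fitted the slope over the 4 CR arrays, which leaves 2. Python 3.11.15, pandas 2.3.3, numpy 2.4.6 and matplotlib 3.10.9 were used otherwise. The number of arrays limits the precision.

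The members, the related lists and the markers were chosen with earlier results of these data known. Every member that passed was named, with a short list of genes named whether they passed or not (some of that list are not reported here), members needed to account for a family, the 2 steepest slopes of each sign, and up to 4 called genes per related list. Columns of the authors' own comparisons were not used. Alternatives were median and quantile scaling, other filters on low signals, a pseudocount of 16, eBayes without a trend, leaving out each CR array, the mean of a gene's probe sets, 2-fold ratios for 1.5-fold ones, and a slope that took the control array as 0%. The next brightest probe set was added after the data were seen.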

Additional observations from a re-analysis of the deposited data

Results flagged for a closer look

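Among the 22 tested members, the 4 CR arrays were examined for an array far from the other 3. The gap to the nearest array, divided by the whole range of the 4 log2 signals, was 0.87 for the 5% CR array of Gria1 (signal 32.5, the others 111.9 to 134.7) and 0.868 for the 5% CR array of Gria3 (205.3, the others 219.9 to 222.2). Both exceed Dixon's 95% critical value for 4 values. Chance marks about 1 in 20 groups, and 2 of 22 were marked here. The 4 arrays are different CR levels and not replicates.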

How the results depend on the processing

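The number of members called higher (2) or lower (3) depended on the processing, and the cause was not tested. Median scaling gave 0 higher and 8 lower members (Gabra2, Gabra5, Gabrb2, Glra2, Glrb, Gria3, Grik5 and Grin1) and 6049 probe sets called in place of 3958. Quantile scaling gave 0 and 1 (Glra2). With no filter, 7 of 45 members were higher (Chrna9, Gabrd, Gabrg3, Gabrq, Glra3, Grik3 and Grin2b), 2 were lower, and 6685 probe sets were called. A filter at the 75th percentile (10 members tested), or 1 that weighted both arms equally (20 tested), gave 0 higher. Neither filter tested Gabrd or Grin2b. Without an intensity trend 1 was lower (Glra2). The mean of a gene's probe sets gave 1 higher (Grin2a) and 2 lower (Gabra2 and Gria2) of 13 members tested. Glra2, Gabrd and Grin2b were not tested under it. Leaving out a CR array gave 1 to 1 higher and 2 to 3 lower. Of all calls, 56.7% were higher as reported, 16.9% after median scaling, 73.9% with no filter and 43.5% with the mean of a gene's probe sets. Signs turned for Gabrb1 (-0.30), Gria2 (-0.22) and Gria4 (-0.42) after median scaling, for Gria4 when the 5% (-0.019) or the 20% CR array was left out (range -0.074 to 0.084 over the arrays left out), for Gria2 (-0.47) and Grin1 (0.46) with the mean of probe sets, and for Gria2 with the next brightest probe set (-1.16). Members past the fold at all 4 levels were 2 above (Gabrd and Grin2b, tested through the CR arrays alone) and 2 below. They were 1 and 0 at 2-fold, 0 and 0 after quantile scaling, and 2 and 1 with a pseudocount of 16. The slope called 0 members under every alternative run, and 3 to 30 probe sets when a CR array was left out. Depth does not apply to arrays: signals under 100 lie near background and limit what can be said of the dim members. No paired analysis was possible because each group has 1 array.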
